A study of Rattus norvegicus with 8 samples.

Results

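The mRNAs of 3 hyperpolarization-activated cyclic nucleotide-gated channel genes, Hcn2, Hcn3 and Hcn4, and of their auxiliary subunit gene Pex5l were followed across neuronal compartments and picrotoxin treatment. The 4 genes were chosen by symbol from the 28909 symbols of the count table, and all 4 had enough reads to be tested among 14309 genes. Embryonic hippocampal neurons of Sprague-Dawley rats were grown on porous filter inserts, where somata stay on the upper side and processes grow through to the lower side. RNA of each side was sequenced after ribosomal RNA depletion, as total RNA with 2 libraries per condition and 8 in all. The conditions were somata control, somata PTX, processes control and processes PTX. PTX is picrotoxin, an antagonist of GABA-A receptors that removes inhibition in the culture, and it was given for 48 h from day 18 to day 20 in vitro, while control cultures received the ethanol vehicle. No source states whether the 2 libraries of a condition came from separate cultures, so the p-values measure the spread between these libraries, which may be technical.

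HCN channels open when the membrane hyperpolarizes and pass the inward current known as Ih, and cyclic AMP binding to their C-terminal domain shifts the voltage at which they open. In hippocampal pyramidal neurons this current is known for its density in dendrites, where it shortens synaptic potentials and limits their summation. Pex5l, also called TRIP8b, is a brain relative of the peroxisomal import receptor Pex5 that binds the C-terminal tail of HCN channels, steers their surface delivery and antagonises the effect of cyclic AMP.

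The libraries held between 12290890 and 18455662 counts, of which mitochondrially encoded genes took 22.6% to 26.7% on the somatic side but 68.5% to 72.5% on the process side, which left fewer reads there for transcripts of the nucleus. The cultures carried all 6 pan-neuronal markers examined, such as Map2 and Snap25, and also all 7 astrocyte markers, such as Gfap and Aqp4. Astrocyte markers summed to between 2755 and 4077 CPM (counts scaled to one library size with TMM factors) in somata and between 10788 and 14255 CPM in processes, and markers of the oligodendrocyte lineage to between 272 and 457 CPM and between 471 and 648 CPM. The 5 microglial markers in the table together stayed between 0.587 and 1.91 CPM in all libraries, and the 3 endothelial markers between 0.101 and 0.893 CPM. In such bulk RNA, fewer cells of a type and less RNA per cell cannot be told apart.

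Of the 3 HCN genes, Hcn2 was the one whose mRNA favoured processes, at 2.32 times its somatic level in control cultures and 2.82 times after PTX relative to the typical gene, a direction that turned to the somatic side only where libraries were scaled by total counts alone. Pex5l mRNA was also higher in processes, by 1.55 times in control cultures, with the same exception. Its compartments overlapped, however, where libraries were scaled by counts outside mitochondrial genes. Hcn3 and Hcn4 lay near the typical gene in control cultures and were lower in processes than in somata after PTX, at 0.547 and 0.589 times the somatic level. For PTX against control none of the 4 genes passed in either compartment with edgeR's quasi-likelihood test. The nearest was Hcn4 in somata at 1.84 times the control level (adjusted p = 0.0561, edgeR quasi-likelihood test with Benjamini-Hochberg adjustment over all tested genes). The likelihood ratio test, which the study used, called Hcn4 as higher in somata and no other of the 4 genes under PTX. The labels do not say what the replicate numbers mark, so pairing libraries by them is an inference from these same counts. A fit with these numbers as a block called Hcn4 as higher in somata and Pex5l as lower in both compartments. In the unblocked quasi-likelihood test Pex5l had an adjusted p of 0.395 in somata and 0.257 in processes. The calls of Pex5l thus depend on that inference.

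**Figure D1:**
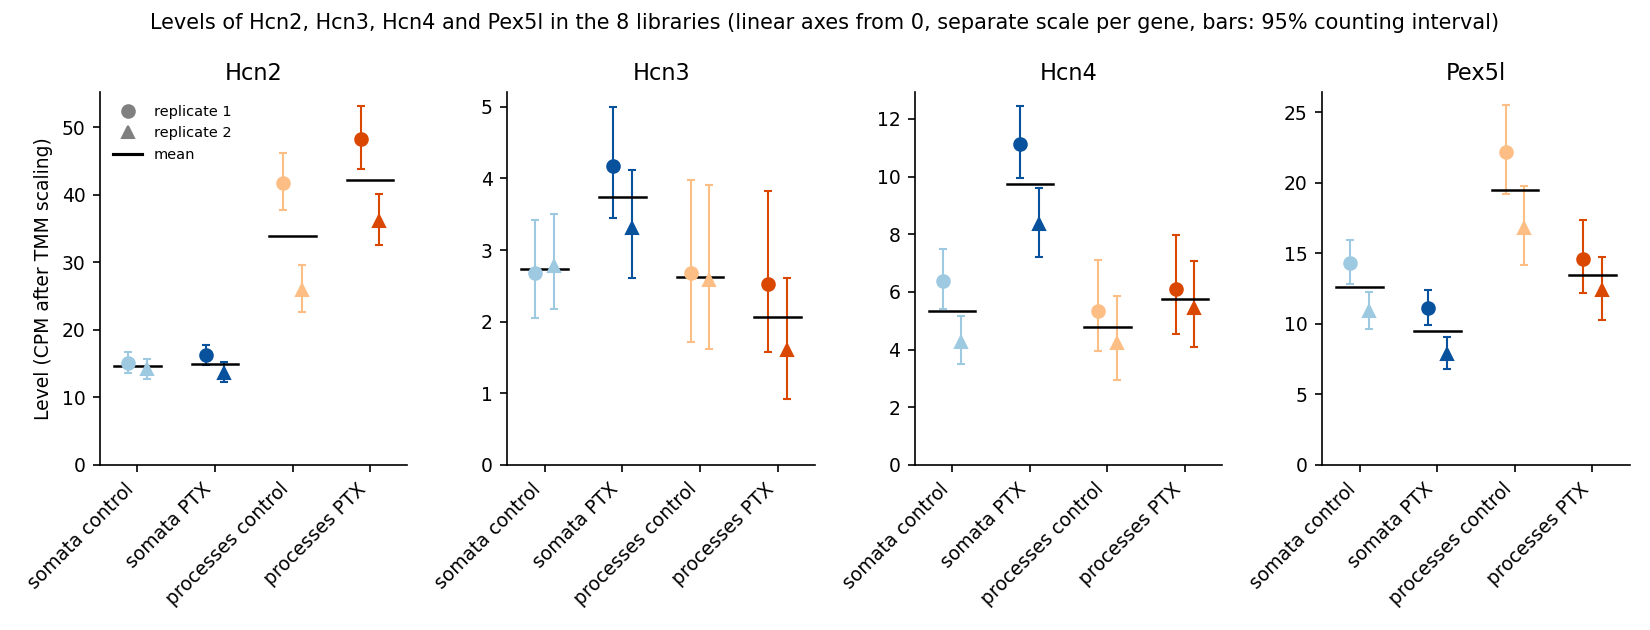
Levels of Hcn2, Hcn3, Hcn4 and Pex5l in CPM after TMM scaling (vertical axes from 0, a separate scale per gene) in the 4 conditions. Each symbol is 1 library (circle, replicate 1 and triangle, replicate 2) with its exact 95% Poisson counting interval, and the horizontal line is the mean of 2 libraries. Hcn2 stood between 26.0 and 48.3 CPM in processes and between 13.7 and 16.2 CPM in somata, a separation that rests on this scaling, and Hcn4 stood highest in the 2 somata PTX libraries, at 11.1 and 8.34 CPM.

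The first question was where each mRNA lies. Hcn2, a channel subunit found widely in the brain and strongly shifted by cyclic AMP, was counted with 355 and 361 reads in the somata control libraries and 375 and 221 reads in the processes control libraries. After scaling this was 15.1 and 14.1 CPM in somata and 41.8 and 26.0 CPM in processes. Both process libraries lay above both somatic libraries, and replicate 2 of processes control was well below replicate 1. The means were 14.6 ± 0.671 CPM (SD, n = 2) and 33.9 ± 11.2 CPM (SD, n = 2), and the fitted log2 fold change was 1.22 (standard error, SE, 0.213, 95% interval 0.75 to 1.69, adjusted p = 0.000905, quasi-likelihood test). Without replicate 1 of processes control it was 0.83 and still passed (adjusted p = 0.0109). In PTX cultures Hcn2 stood at 16.2 and 13.7 CPM in somata and 48.3 and 36.2 CPM in processes, again without overlap. The log2 fold change there was 1.49 (SE 0.21, adjusted p = 0.000193), higher than that of 94.6% of all tested genes.

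Pex5l, the auxiliary subunit, stood at 14.3 and 10.9 CPM in the somata control libraries and 22.2 and 16.8 CPM in the processes control libraries. Replicate 1 was the higher library on both sides, and the compartments did not overlap with TMM scaling. Scaled by counts outside mitochondrial genes they overlapped, at 35.3 and 26.7 CPM in somata control and 39.2 and 30.4 CPM in processes control. With TMM scaling the log2 fold change was 0.63 (SE 0.21, adjusted p = 0.0296). This call was lost without replicate 2 of somata control (log2 fold change 0.44, adjusted p = 0.181), without replicate 1 of processes control (0.42, adjusted p = 0.229) and with upper quartile scaling (0.43, adjusted p = 0.108). In PTX cultures the level was 11.1 and 7.88 CPM in somata and 14.6 and 12.4 CPM in processes, again without overlap with TMM scaling. By counts outside mitochondrial genes the compartments overlapped there too, at 27.5 and 19.5 CPM in somata and 26.4 and 22.4 CPM in processes. With TMM scaling the fitted value of 0.50 (SE 0.219) missed the threshold at an adjusted p of 0.0818. It passed in 3 alternatives, among them the fit with the replicate number as a block (0.51, adjusted p = 0.00284). With 1 library left out the value ranged from 0.28, without replicate 2 of somata PTX, to 0.78, without replicate 1.

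Hcn4, the slowly opening subunit best known from the pacemaker cells of the heart and from thalamic neurons, was counted with 150 and 109 reads in somata control and 48 and 36 reads in processes control. These counts were 6.38 and 4.27 CPM in somata and 5.35 and 4.23 CPM in processes, and the compartments overlapped (log2 fold change -0.15, 95% interval -0.73 to 0.43, adjusted p = 0.674). In PTX cultures the 2 somata libraries stood at 11.1 and 8.34 CPM and the 2 process libraries at 6.09 and 5.43 CPM, without overlap. The fitted difference was -0.76 on the log2 scale (SE 0.243) and passed at an adjusted p of 0.0228, with Hcn4 lower in processes. Without replicate 1 of somata PTX the value was -0.53 (adjusted p = 0.171), without replicate 1 of processes PTX it was -0.85 (adjusted p = 0.0585), and without replicate 2 of processes PTX it was -0.68 (adjusted p = 0.123).

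Hcn3, a subunit that responds little to cyclic AMP, was the gene with the fewest reads, with 63 and 71 in somata control and 24 and 22 in processes control. Its level was 2.68 and 2.78 CPM in somata and 2.68 and 2.58 CPM in processes, so that the 4 control libraries were nearly alike (log2 fold change -0.05, 95% interval -0.68 to 0.57, adjusted p = 0.89). In PTX cultures it stood at 4.17 and 3.30 CPM in somata and 2.53 and 1.61 CPM in processes. The fitted difference, -0.87 on the log2 scale with an SE of 0.283, passed (adjusted p = 0.0255) and rested on 22 and 16 reads in processes, whose exact 95% Poisson intervals run from 13.8 to 33.3 and from 9.15 to 26.0 reads and cover counting error only. The call was lost with DESeq2 (adjusted p = 0.095), with only the 4 PTX libraries fitted (adjusted p = 0.0504), without replicate 1 of somata PTX (adjusted p = 0.157) and without replicate 2 of processes PTX (adjusted p = 0.199).

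Of the 4 genes, 2 were thus called in processes against somata of control cultures and 3 in PTX cultures, where 47.7% and 49.8% of all tested genes were called, so the number of calls was close to that of genes in general. Higher in processes were 25.8% of all tested genes in control and 25.7% in PTX cultures, and lower were 21.9% and 24%. The libraries of the 2 compartments did not overlap for 74.9% and 75.9% of them. These differences are relative to the typical gene. Scaled by total counts alone, the median gene moved to -1.86 in control and -1.87 in PTX cultures, and Hcn2 had log2 fold changes of -0.61 and -0.34. Relative to that median it stood at 1.24 and 1.53, against 1.27 and 1.55 with TMM scaling, and Pex5l in control cultures at 0.67 against 0.68. With TMM scaling the summed astrocyte markers were higher in processes as well, and 3 of the 7 passed in that direction in control cultures and 2 in the other. Scaled by total counts alone, their sums overlapped, at 5278 to 7569 CPM in somata and 5536 to 7149 CPM in processes. Their part in the compartment difference of Hcn2 and Pex5l was not tested.

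**Figure D2:**
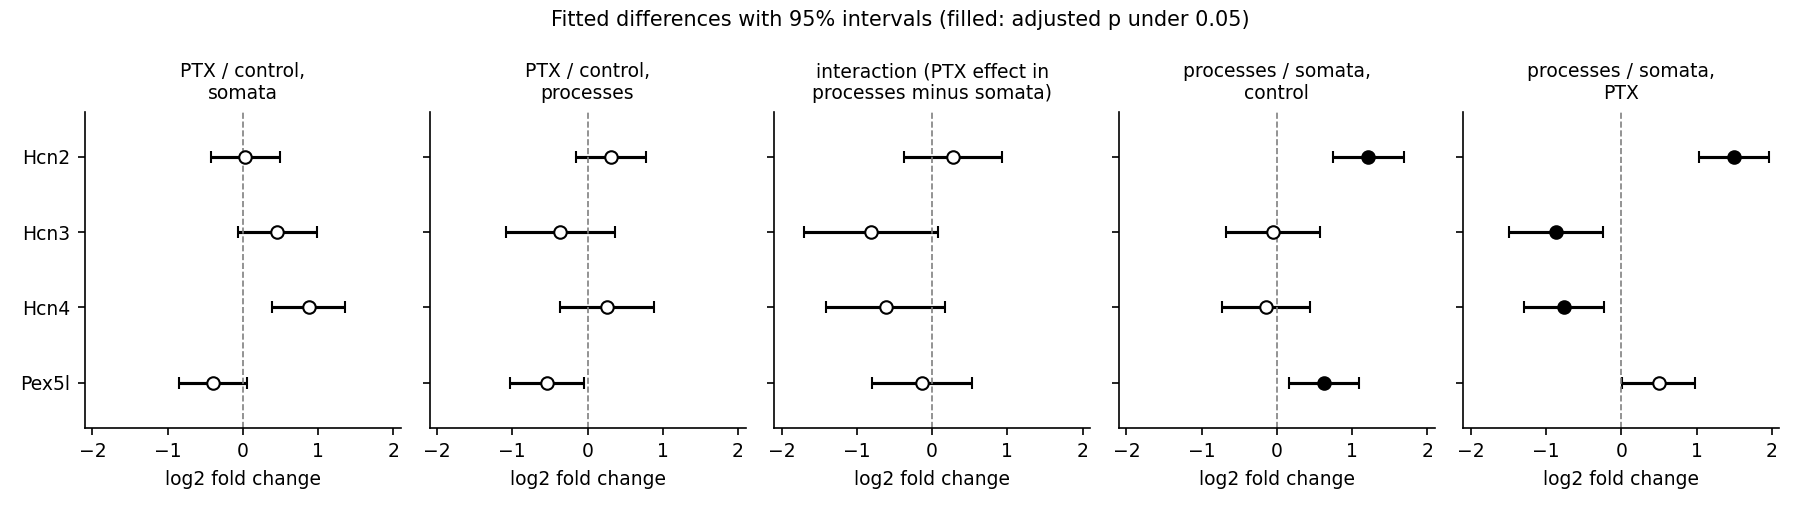
Fitted log2 fold changes of Hcn2, Hcn3, Hcn4 and Pex5l (horizontal axes, TMM scaling) with 95% intervals from the quasi-likelihood fit in 5 contrasts, where filled points have an adjusted p under 0.05. Filled points are confined to the contrasts of processes with somata, where Hcn2 lies at 1.22 and 1.49, values that turn negative when libraries are scaled by total counts alone, and the interval of Hcn4 under PTX in somata runs from 0.39 to 1.36.

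The second question was whether PTX altered these mRNAs, and whether it did so alike in both compartments. In somata, Hcn4 stood at 6.38 and 4.27 CPM in control and 11.1 and 8.34 CPM in PTX libraries, with 310 and 197 reads after PTX. Both PTX libraries lay above both control libraries, which was so in either direction for 49% of all tested genes. The ratio of the fitted levels was 1.84 (95% interval 1.31 to 2.57), and the fitted log2 value, 0.88 with an SE of 0.22, had an unadjusted p of 0.00223 and an adjusted p of 0.0561 in edgeR's quasi-likelihood test. The value was larger than that of 98.1% of the 14309 genes. The adjusted p was 0.000169 in the blocked fit, 0.01 in the likelihood ratio test and 0.0663 in DESeq2. Compared between libraries of the same number, PTX over control was 1.75 in replicate 1 and 1.95 in replicate 2. Without replicate 2 of somata control the log2 fold change was 0.60, and without replicate 1 of somata control 1.19.

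In processes, Hcn4 stood at 5.35 and 4.23 CPM in control and 6.09 and 5.43 CPM after PTX. The 2 groups just failed to overlap, and the fitted log2 value was 0.26 (95% interval -0.37 to 0.89, adjusted p = 0.717). It was 0.44 with replicate 1 of processes control left out and 0.10 with replicate 2 left out. The interval includes the somatic value, and the interaction, the PTX value of processes less that of somata, was -0.62 (SE 0.36, unadjusted p = 0.114, adjusted p = 1). Of the 5 tested markers of inhibitory neurons, 2 rose with PTX in somata, where 2.09% of all tested genes rose. These were the glutamate decarboxylase genes Gad1 and Gad2, which make GABA, at 0.82 (adjusted p = 0.0247) and 0.92 (adjusted p = 0.0328) on the log2 scale. The other 3 had values of -0.02 for the vesicular GABA transporter gene Slc32a1 (adjusted p = 0.976), -0.41 for Dlx1 (adjusted p = 0.437) and 0.07 for Lhx6 (adjusted p = 0.972), and the median of the 5 was 0.07. All 6 markers in the table summed to between 211 and 288 CPM in somata control and between 374 and 479 CPM in somata PTX, a sum made up mostly of Gad1 and Gad2, which alone held 152 and 287 CPM of the 479 CPM. In processes 1 of the 5 rose, Gad2 (0.92, adjusted p = 0.0384), beside 1.64% of all tested genes. The sum there was between 128 and 163 CPM in control and between 207 and 271 CPM after PTX. The part of inhibitory neurons in the Hcn4 values was not tested.

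Pex5l was lower after PTX in each compartment and in each pair of libraries of the same number. In somata the control libraries stood at 14.3 and 10.9 CPM and the PTX libraries at 11.1 and 7.88 CPM, so the groups overlapped slightly. The log2 fold change was -0.40 (SE 0.204, 95% interval -0.85 to 0.05) and did not pass (adjusted p = 0.395), whereas the blocked fit gave -0.41 (adjusted p = 0.0246). Single libraries moved the unblocked value, to -0.68 with replicate 1 of somata PTX left out, -0.19 with replicate 2 of somata PTX left out and -0.20 with replicate 1 of somata control left out. In processes the control libraries stood at 22.2 and 16.8 CPM and the PTX libraries at 14.6 and 12.4 CPM, without overlap, against 42.4% of all tested genes without overlap in either direction. The log2 fold change was -0.54 (SE 0.224, unadjusted p = 0.0358), and it did not pass either (adjusted p = 0.257), whereas the blocked fit gave -0.52 (adjusted p = 0.0174). Leaving out replicate 1 of processes control brought the unblocked value to -0.32. Between libraries of the same number, the PTX level was 0.776 and 0.723 times the control level in somata and 0.657 and 0.736 times in processes. Of the 6 pan-neuronal markers, 1 fell with PTX in each compartment, Rbfox3 in somata (log2 fold change -0.67, adjusted p = 0.0221) and Syn1 in processes (-0.76, adjusted p = 0.0229), and 0 rose. Over all tested genes 1.5% fell in somata and 2.1% in processes. The markers had median log2 fold changes of -0.27 in somata and -0.40 in processes, while Nefl went the other way, at 0.13 in each compartment. For all 6 pan-neuronal markers the sum was between 1584 and 1743 CPM in somata control and between 1463 and 1564 CPM in somata PTX. In processes it was between 5058 and 5394 CPM in control and between 3854 and 4528 CPM after PTX. Of the 6 excitatory neuron markers, 1 was called in somata, as lower, and in processes 1 as higher and 2 as lower. They summed to between 318 and 329 CPM in somata control and between 232 and 261 CPM in somata PTX. In processes this sum went the other way, between 163 and 211 CPM in control and between 263 and 287 CPM after PTX. The part of the cells of either marker set in the Pex5l values was not tested.

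For Hcn2, the somata libraries stood at 15.1 and 14.1 CPM in control and 16.2 and 13.7 CPM after PTX, with the PTX libraries on either side of the controls. The log2 fold change of 0.03 had a 95% interval from -0.43 to 0.49, which corresponds to levels between 0.745 and 1.41 times the control. In processes the value was 0.31 (95% interval -0.15 to 0.78, adjusted p = 0.514), with control libraries at 41.8 and 26.0 CPM and PTX libraries at 48.3 and 36.2 CPM. The spread between the control libraries decided its size. With replicate 1 of processes control left out it was 0.70, and with replicate 2 left out 0.01.

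Hcn3 stood at 2.68 and 2.78 CPM in somata control and 4.17 and 3.30 CPM in somata PTX, without overlap (log2 fold change 0.46, SE 0.237, adjusted p = 0.411). With replicate 1 of somata PTX left out the value was 0.27. In processes it stood at 2.68 and 2.58 CPM in control and 2.53 and 1.61 CPM after PTX, with a log2 fold change of -0.36 (SE 0.327, adjusted p = 0.653). That value was -0.71 with replicate 1 of processes PTX left out and -0.06 with replicate 2 left out, and it rested on 16 to 24 reads per process library.

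Taken over the 4 genes, 0 passed for PTX in somata and 0 in processes with edgeR's quasi-likelihood test, where 3.59% and 3.74% of all tested genes were called. In somata 2.09% of all tested genes rose and 1.5% fell, and in processes 1.64% rose and 2.1% fell. At an unadjusted p under 0.05 there was 1 gene in each compartment, Hcn4 in somata and Pex5l in processes, against 15.6% and 16.6% of all tested genes. The likelihood ratio test called 1 gene in somata and 0 in processes, DESeq2 0 and 0, and the fit with the replicate block 2 and 1. The interaction called 0 of the 4 with each of these tools, with 0 at an unadjusted p under 0.05 in the quasi-likelihood test. In the fit with the block 1 gene had an unadjusted p under 0.05, Hcn4 (unadjusted p = 0.0362, edgeR adjusted p = 0.529). Over all tested genes the interaction called 0% in the quasi-likelihood test, and 4% had an unadjusted p under 0.05.

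Ordered by mean level, each gene had its own sequence of conditions. Hcn2 ran from processes PTX (42.3 ± 8.59 CPM) over processes control (33.9 ± 11.2 CPM) to somata PTX (14.9 ± 1.8 CPM) and somata control (14.6 ± 0.671 CPM), each mean with SD and n = 2. The first 2 did not differ beyond their spread, nor did the last 2. Hcn4 was highest in somata PTX (9.74 ± 1.98 CPM), and processes PTX (5.76 ± 0.464 CPM), somata control (5.32 ± 1.49 CPM) and processes control (4.79 ± 0.795 CPM) followed within their spread. Pex5l was highest in processes control (19.5 ± 3.82 CPM), followed by processes PTX (13.5 ± 1.57 CPM), somata control (12.6 ± 2.43 CPM) and somata PTX (9.49 ± 2.29 CPM), and the middle 2 did not differ beyond their spread. Hcn3 ran from somata PTX (3.74 ± 0.614 CPM) over somata control (2.73 ± 0.073 CPM) and processes control (2.63 ± 0.0655 CPM) to processes PTX (2.07 ± 0.649 CPM). Transcript lengths were not used, so levels of different genes are not ranked against each other.

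Ratios of reads between 2 of the genes within a library do not depend on any scaling factor. The ratio of Hcn2 to Hcn4 reads was 2.37 and 3.31 in somata control, 1.45 and 1.64 in somata PTX, 7.81 and 6.14 in processes control and 7.94 and 6.67 in processes PTX. It was thus higher in every process library than in every somata library, and in somata it was lower in both PTX libraries than in both controls. The ratio of Hcn4 to Pex5l was 0.445 and 0.392 in somata control and 1.0 and 1.06 in somata PTX, and 0.241 and 0.252 in processes control and 0.417 and 0.439 in processes PTX. In both compartments, the PTX libraries lay above the controls by more than the libraries of a condition differed, by 2.07 times on average.

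The ratio of Hcn2 to Pex5l was 1.05 and 1.3 in somata control and 1.46 and 1.74 in somata PTX, and 1.88 and 1.55 in processes control and 3.31 and 2.93 in processes PTX. It too was higher in the PTX libraries of each compartment, by 1.58 times on average. All 6 ratios of the 4 genes were tested with a two-sided exact permutation test of labels within the other factor, whose smallest possible p is 0.0556, so that no ratio could pass 0.05. That smallest p was reached between compartments by 5 ratios, all but Hcn3 to Hcn4 (adjusted p = 0.0667 over 6), and under PTX by Hcn2 to Pex5l, Hcn3 to Hcn4 and Hcn4 to Pex5l (adjusted p = 0.111). The ratios share genes and were added after the levels were seen. No share over other pairs of genes was computed, so the test decides nothing about these ratios.

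**Figure D3:**
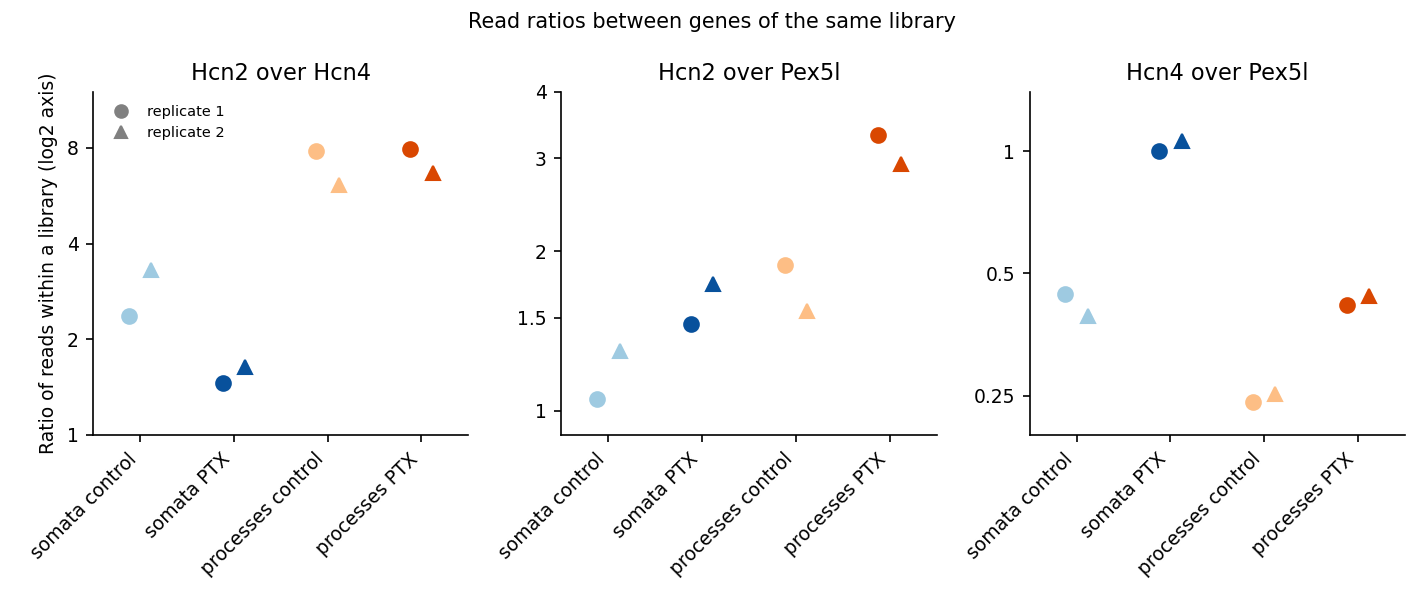
Ratios of reads within a library (vertical log2 axes) for Hcn2 over Hcn4, Hcn2 over Pex5l and Hcn4 over Pex5l in the 4 conditions. Each symbol is 1 library (circle, replicate 1 and triangle, replicate 2), and no scaling factor enters. Hcn4 over Pex5l lay at 0.445 and 0.392 in somata control against 1.0 and 1.06 in somata PTX.

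Expressed as a share, Hcn4 held 26.4% (exact Clopper-Pearson 95% interval 22.8 to 30.2) and 20.1% (16.8 to 23.8) of the reads of the 3 channel genes in the somata control libraries. After PTX it held 35.3% (32.2 to 38.6) and 32.9% (29.2 to 36.9) there. In processes the share was 10.7% (8.02 to 14.0) and 12.9% (9.20 to 17.4) in control and 10.7% (8.11 to 13.7) and 12.6% (9.58 to 16.1) after PTX. The 2 somata PTX libraries lay above both somata control libraries, and the 4 process libraries overlapped. These intervals cover counting error only.

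Of 15 partners and regulators of HCN channels, 13 were tested. Grasp, which encodes the postsynaptic scaffold tamalin, stood at 3.44 and 2.86 CPM in somata control and 10.7 and 8.72 CPM in somata PTX, without overlap. It rose in somata by 1.63 on the log2 scale (SE 0.183, adjusted p = 0.00107) and in processes by 1.04 (SE 0.236, adjusted p = 0.0382), where DESeq2 gave an adjusted p of 0.0506. In processes it stood at 3.01 and 3.05 CPM in control and 6.43 and 6.03 CPM after PTX. Flna, the actin crosslinker filamin A, rose in processes from 84.3 and 84.4 CPM to 146 and 117 CPM (log2 fold change 0.64, SE 0.124, adjusted p = 0.0204), with a value of 0.19 in somata (adjusted p = 0.514). Neither interaction passed (adjusted p = 1 for each). No other gene of this list was called under PTX, and 0 were called as lower. The list thus had 1 of 13 genes called in somata and 2 in processes, beside 3.59% and 3.74% of all tested genes. The median log2 fold change of the list was 0.02 in somata and 0.04 in processes, against -0.01 and -0.01 over all tested genes. Between compartments of control cultures, 3 of the 13 were higher in processes and 2 lower with TMM scaling, beside 25.8% and 21.9% of all tested genes.

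Among the other channels of the cyclic nucleotide-binding domain family, a grouping by relatedness, 7 of 13 in the table were tested. All 7 were of the ether-à-go-go potassium channel family Kcnh, and no Cng channel gene of sensory cells was among them. Binding of cyclic nucleotides by these 7 is not implied. PTX called 0 of the 7 in somata and 0 in processes with the quasi-likelihood test, and 0 and 0 with the likelihood ratio test or DESeq2. In the quasi-likelihood test 2 had an unadjusted p under 0.05 in each compartment, beside 15.6% and 16.6% of all tested genes. The smallest p in somata was that of Kcnh5, at 5.31 and 5.29 CPM in control and 7.33 and 7.11 CPM after PTX (log2 fold change 0.45, adjusted p = 0.184). In processes it was that of Kcnh1, at 14.8 and 9.98 CPM in control and 8.84 and 7.64 CPM after PTX (-0.60, adjusted p = 0.152, or 0.0337 with the block). The median of the 7 was 0.23 in somata and -0.23 in processes. With the block, 1 was called in each compartment, Kcnh1 as lower in processes and Kcnh2 as higher in somata (0.49, adjusted p = 0.0442), a gene named here after its values were seen. Between compartments of control cultures, 1 of the 7 was higher in processes and 2 lower with TMM scaling, beside 25.8% and 21.9% of all tested genes. The higher one was Kcnh3, also named after its values were seen, with a log2 fold change of 1.67 against 1.22 for Hcn2.

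For the peroxisome biogenesis genes, to which the relative of Pex5l belongs, 15 were tested. Pex5, the cytosolic receptor that carries enzymes into peroxisomes, stood at 13.1 and 10.7 CPM in somata control and 20.0 and 19.6 CPM in somata PTX. It rose there by 0.73 on the log2 scale (SE 0.16, adjusted p = 0.0311), while Pex5l had a value of -0.40 in the same libraries. In processes Pex5 stood at 7.36 and 6.22 CPM in control and 9.53 and 6.84 CPM after PTX (log2 fold change 0.26, adjusted p = 0.61). Pex5 was the only one of the 15 called under PTX in somata, beside 3.59% of all tested genes. In processes 0 were called by the quasi-likelihood test, the likelihood ratio test or DESeq2, with 0 at an unadjusted p under 0.05. Over all tested genes 3.74% were called there and 16.6% had an unadjusted p under 0.05 in the quasi-likelihood test. With TMM scaling, Pex5 was lower in processes than in somata of control cultures (log2 fold change -0.81, adjusted p = 0.0056), opposite to the sign of Pex5l. Of all tested genes 21.9% were called as lower there. Scaled by total counts alone both genes were lower in processes, with means of 3.54 against 21.8 CPM for Pex5 and 10.1 against 23.1 CPM for Pex5l.

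**Figure D4:**
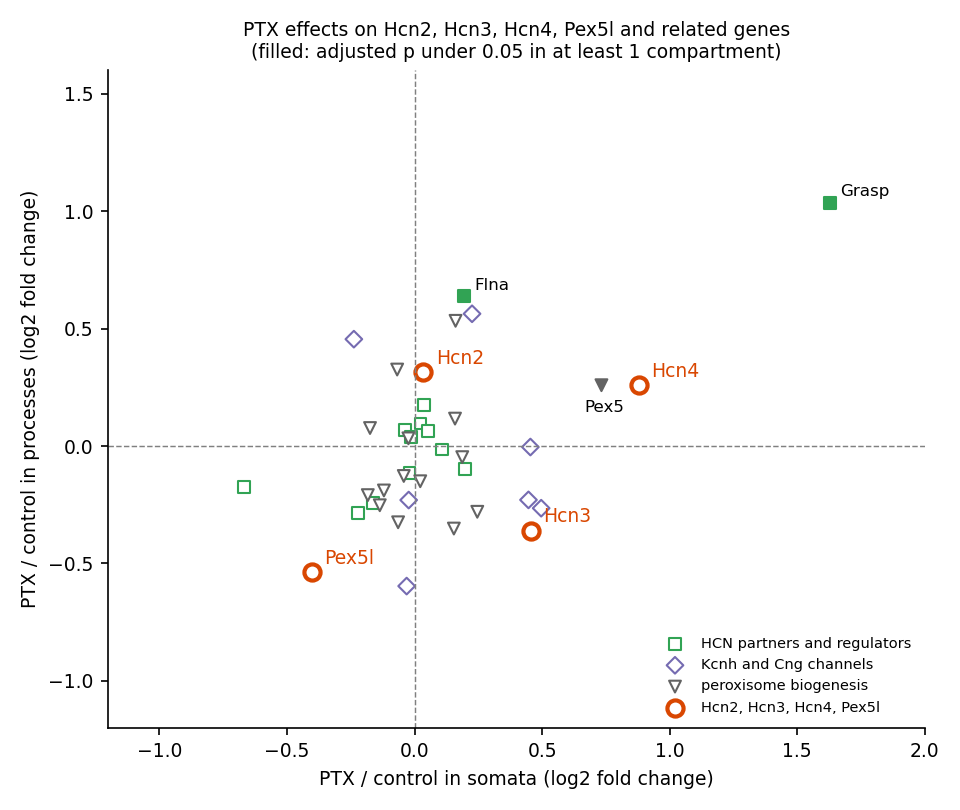
Log2 fold change under PTX in somata (horizontal axis) and in processes (vertical axis), TMM scaling, for Hcn2, Hcn3, Hcn4 and Pex5l and the tested genes of 3 related lists, with 1 symbol per gene. Filled symbols passed in at least 1 compartment, and these are Grasp, at 1.63 and 1.04, Flna, at 0.19 and 0.64, and Pex5, at 0.73 and 0.26. Pex5l lies at -0.40 and -0.54.

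The genes whose log2 CPM followed each member most closely over the 8 libraries were found among tested genes averaging 5 CPM or more, as a description only, since all points share the libraries, their depth and the 2 compartments. For Hcn2 these were Bicdl1, which encodes a dynein adaptor (r = 0.997), Dpf1 (r = 0.993) and Nr2f6 (r = 0.992). Relative to the typical gene, all 3 had positive log2 fold changes in processes against somata of control cultures, at 1.13, 1.0 and 0.81. The choice by likeness to Hcn2 fixes that direction. For Hcn4 they were Sgip1, an endocytic adaptor gene (r = 0.975), the amino acid transporter gene Slc7a8 (r = 0.974) and Plagl1 (r = 0.969). Under PTX in somata their log2 fold changes were 0.38, 1.17 and 0.79, a direction that the choice by likeness to Hcn4 fixes. For Pex5l they were Higd2a (r = 0.987), Rgs10 (r = 0.981) and Cipc (r = 0.978). Their PTX values were negative in both compartments, a direction that the choice by likeness to Pex5l largely fixes. For Hcn3, Zfp512 (r = 0.974) and Coq8b (r = 0.956) came first. Among the 4 genes themselves, r ran from -0.57 for Hcn2 with Hcn3 to 0.672 for Hcn2 with Pex5l.

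All 4 symbols were found in the RefSeq genes of GRCr8, which is newer than the build used for mapping. Hcn2 and Hcn4 overlapped no other gene there. Hcn3 overlapped Pklr, the pyruvate kinase gene of liver and red cells, which had 0 reads in 7 of the libraries and 4 in replicate 1 of somata PTX. Pex5l overlapped 2 uncharacterised loci and had 36 RefSeq transcripts, and the counts per symbol do not tell these transcripts apart.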

How the data were processed

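RNA of 8 libraries was deposited as whole-number counts per gene symbol. The authors trimmed the reads, mapped them to Rnor 6.0 with Subread subjunc and Ensembl annotation, ran featureCounts and aggregated the counts to symbols without normalization, whereas the submitters' processing notes name STAR. Whether counting used strand is not given in the sources used here. The authors' tables of PTX fold changes and p-values were not used.

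A gene was tested where 2 or more libraries each held over 20 of its reads. TMM factors, glmQLFit over all 8 libraries with 1 coefficient per condition, and glmQLFTest were run with edgeR 4.0.16 in R 4.3.3, with Benjamini-Hochberg adjustment over 14309 genes and a threshold of 0.05. Standard errors are the log2 fold change over the root of F, and 95% intervals use the fit's degrees of freedom. The study used the likelihood ratio test on the same conditions. It and DESeq2 1.42.0, other scalings and filters, the replicate block and left-out libraries were alternatives, and the tests were tested on simulated data. CPM are after TMM scaling, and log2 CPM has a prior count of 2.

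Replicate numbers were taken from the labels, which do not say what they mark, and their use to pair libraries is an inference from the counts. Across genes, replicate 2 minus replicate 1 correlated with r between 0.274 and 0.54 in all 6 pairs of conditions, and the replicate block lowered the common dispersion from 0.0132 to 0.00459. Depth was between 4702054 and 11227599 counts per library outside mitochondrial genes. Named were the 4 genes, called members of 3 lists (or the smallest p), and the 3 most alike genes. Members and lists were chosen with earlier results of these data known, and the ratios between genes were added after the levels were seen. Not every gene of the channel family, nor every most alike gene, is reported here.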

Additional observations from a re-analysis of the deposited data

Results flagged for a closer look

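Hcn3 stood higher in both somata PTX libraries than in both somata controls, and lower in both processes PTX libraries than in both processes controls, so its libraries moved opposite ways in the 2 compartments. PTX and control libraries did not overlap, in either direction, for 49% of all tested genes in somata and 42.4% in processes. The difference between the PTX effects was a log2 value of -0.82 with a standard error of 0.403, and the test of that difference did not pass (unadjusted p = 0.0688, adjusted p = 1, edgeR quasi-likelihood interaction). With the replicate number as a block it was -0.81 (adjusted p = 0.58). With 1 library left out it ranged from -1.16, without replicate 1 of processes PTX, to -0.51, without replicate 2. Hcn3 had between 16 and 24 reads in the process libraries.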

How the results depend on the processing

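The number of the 4 genes called for PTX in somata was 0, and it was 1 with the likelihood ratio test, with library size only and without a filter, and 2 with the replicate block. In processes it was 0, and 1 with the replicate block. For processes against somata it was 2 in control cultures, 4 with library size only, 1 with upper quartile scaling and 1 to 2 with a library left out, and 3 in PTX cultures, with 1 to 3 when a library was left out. With library size only, processes against somata reversed for Hcn2 (-0.61 in control, -0.34 in PTX cultures) and Pex5l (-1.19 and -1.33), where the median gene also moved. Leaving out 1 library reversed values near 0. Hcn2 under PTX in somata ranged from -0.10 to 0.14, with -0.02 without replicate 2 of somata control and -0.10 without replicate 1 of somata PTX. Hcn4 in processes against somata of control cultures ranged from -0.42 to 0.17, with 0.17 without replicate 1 of somata control and 0.01 without replicate 2 of processes control. The interaction of Pex5l ranged from -0.35 to 0.15 and was 0.07 without replicate 2 of somata control, 0.15 without replicate 1 of somata PTX and 0.08 without replicate 1 of processes control, and that of Hcn2 ranged from -0.022, where replicate 2 of processes control was left out, to 0.67, where replicate 1 was. The cause of these changes was not tested. Over all genes, PTX called 513 in somata and 535 in processes, 972 and 949 with the likelihood ratio test, 1141 and 1129 without a filter, 2002 and 1601 with the replicate block, 298 in processes with only the 4 libraries compared, and 117 to 568 and 97 to 478 with a library left out. Beside the calls of Hcn4 and Pex5l given in the report, the block changed no call of the 4 genes. Of 336 values under an alternative, 303 kept their direction and side of the threshold, 12 reversed, 11 passed only there and 10 no longer passed. The order of the genes by level per length was not run, because no transcript lengths were used. Hcn3 had 16 to 24 reads per process library, and with 2 libraries per condition an adjusted p above 0.05 does not show that a gene kept its level.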
